A study of Mus musculus with 16 samples.

Results

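The genes described here are 6 genes of vitamin B12 uptake, Cubn, Amn, Lrp2, Dab2, Tcn2 and Cd320, chosen by name for their known roles, with earlier results of these data known, out of 24940 genes counted. They were measured by poly(A) RNA sequencing in the terminal ileum of 16 C57BL/6 mice, 1 library each. All animals carried the floxed Bcl6 alleles (Bcl6 fl/fl). The WT groups carried nothing else, and the LKO groups also carried Alb-cre, in which the albumin promoter drives Cre recombinase in hepatocytes, so the Bcl6 gene of the ileum is not the target of the deletion. Each genotype was represented by 4 males and 4 females, which gives 4 groups, and the comparisons ask whether the ileum differs when the liver lacks this transcriptional repressor, and whether males and females differ. Mice were described as fed or fasted for 4 hours, without saying which applied here, and the age was not given in the sources used here. Replicates are known only from the sample titles, so the p-values measure the spread between these samples.

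Vitamin B12 from food reaches the ileum bound to intrinsic factor. On the brush border of ileal enterocytes this complex is taken up by cubam, the pair of cubilin (Cubn), the large extracellular receptor, and amnionless (Amn), the small transmembrane protein that carries cubilin to the cell surface and anchors it there. Dab2 is an endocytic adaptor of receptors of this kind, and megalin (Lrp2) is the giant endocytic receptor that works beside cubilin in kidney. The vitamin enters the blood bound to transcobalamin (Tcn2), and CD320 (Cd320) is the receptor through which cells take transcobalamin up.

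In the 15 shallower libraries the gene counts summed to between 15.7 and 20.5 M (M, mega), and in female LKO replicate 1 they summed to 60.3 M. At these depths 3 counts equaled 0.0485 to 0.190 counts per M (CPM, scaled by trimmed mean of M-values), which is the limit that a count of 0 allows and covers counting error only. The defining ileal markers were high in every library: Fabp6, the ileal bile acid-binding protein, ranged from 2662 to 5436 CPM and the ileal bile acid importer Slc10a2 from 426 to 820.3 CPM. Of 8 genes listed as markers of more proximal enterocytes, Lct, Slc2a2, Gata4 and Fabp1 had means between 0.256 and 4.52 CPM, while Apoa4, Sis, Slc5a1 and Apoa1 had means between 233 and 2499 CPM. Of 4 genes listed as colonocyte markers, Car1 ran from 0 to 1149 CPM and Aqp8 from 0 to 24.1 CPM between libraries. Slc26a3 ran from 60.1 to 106 CPM and Ceacam1 from 2060 to 3685 CPM. The summed 4 ileal enterocyte markers spanned 3963 to 5365 CPM in male WT, 5419 to 5985 CPM in male LKO, 5272 to 7370.4 CPM in female WT and 4785 to 6652 CPM in female LKO. The 4 summed Paneth cell markers spanned 7113 to 8544 CPM in male WT and 11232 to 13158 CPM in male LKO, and overlapped between the female groups. In male LKO 3 of the 4 genes were called higher by edgeR, where 0.0527% of all genes were called. In the fit of the sexes over both genotypes, 7 of 8 smooth muscle markers were called lower in males (median log2 fold change -0.37) and 3 of 8 epithelial markers higher, where 11% of all genes were called. The part of these shifts in the results below was not tested. Libraries also differed in lymphoid follicle content. The 10 summed B-cell and follicle markers lay above 50 CPM in 4 libraries, with 138 CPM in male WT replicate 2, 80.5 CPM in female WT replicate 3, and 238 and 452 CPM in female LKO replicates 2 and 3. They lay between 19.4 and 33.0 CPM in the other 12 libraries. In such bulk samples fewer cells of a type and less RNA per cell cannot be told apart.

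On mm10, Cubn (NM_001081084) lies on chr2:13276338-13491876 on the minus strand and Amn (NM_033603) on chr12:111271096-111276426 on the plus strand. Lrp2 (NM_001081088) lies on chr2:69424335-69586067 on the minus strand, and Dab2 (NM_023118) on chr15:6386748-6440709 on the plus strand. Tcn2 (NM_015749) lies on chr11:3917080-3932044 on the minus strand, and Cd320 (NM_019421) on chr17:33843091-33849774 on the plus strand. The counts cover the exons, which amount to 11256 bases for Cubn, 1686 for Amn, 15386 for Lrp2, 4500 for Dab2, 2049 for Tcn2 and 2202 for Cd320. No other counted gene overlapped any of the 6, and each had a single annotated position.

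The 250 bases before the counted start were read from the RefSeq promoter table (GRCm38.p6, the assembly of mm10), in which 5 of the 6 genes had a window. Those of Cubn and Amn are shown because both gene products form 1 receptor and the results below set their levels against each other. They are chr2:13491877-13492126 (minus strand) and chr12:111270846-111271095 (plus strand), each printed 5′ to 3′ on the gene's own strand, and capitals mark motif matches.
Cubn: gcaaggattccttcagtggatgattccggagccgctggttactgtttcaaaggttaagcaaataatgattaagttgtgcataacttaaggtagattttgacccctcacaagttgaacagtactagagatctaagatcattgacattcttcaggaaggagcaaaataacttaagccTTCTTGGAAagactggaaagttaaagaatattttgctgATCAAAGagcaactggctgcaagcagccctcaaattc
Amn: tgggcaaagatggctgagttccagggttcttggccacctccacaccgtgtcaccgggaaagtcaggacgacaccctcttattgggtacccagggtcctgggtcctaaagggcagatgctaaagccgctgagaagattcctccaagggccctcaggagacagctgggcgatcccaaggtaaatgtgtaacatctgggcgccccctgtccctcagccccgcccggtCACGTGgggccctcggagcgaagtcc
The windows differ in composition: G and C made up 39.6% of the Cubn window, with 2 CpG sites, and 61.2% of the Amn window, with 11 CpG sites, against a median of 52.4% and 6 CpG sites over 32851 windows. A lower GC content than in the Cubn window was found in 11% of windows, and a lower one than in the Amn window in 74.8%. Exact matches to 6 strings of letters were searched on both strands, among them the E-box CACGTG, held by 6.02% of all windows, and TTCNNNGAA, the core that BCL6 and STAT factors share, held by 7.02%. A string of TCF factors, ATCAAAG, was held by 3.21% of windows, and that of HNF4, CAAAGTCCA, by 0.384%. The GATA string AGATAA was held by 9.99% and the CDX string, spelled TTTATG, by 10.8%. The Cubn window held TTCTTGGAA, a match to TTCNNNGAA, beginning 75 bases before the start, and ATCAAAG beginning 37 bases before it. The Amn window held CACGTG beginning 26 bases before the start. No matches overlapped, and a match is a description of the letters, not of binding.

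Per kilobase of exon, the genes differed widely in level. Mean levels over the 16 libraries were 174 CPM per kb for Tcn2, 37.0 for Amn, 31.3 for Cubn, 5.21 for Dab2, 2.77 for Cd320 and 0.0263 for Lrp2. Transcobalamin stood above 98.6% of all counted genes on this scale, Amn above 91.2%, Cubn above 89.6%, Dab2 above 64.4%, Cd320 above 55.9% and Lrp2 above 26.4%. Neighbors in this order were separated in every library except for the cubam pair: Amn exceeded Cubn in 11 of 16 libraries, with the mean over libraries 1.18-fold that of Cubn, and their ranges overlapped. Tcn2 was 4.72-fold above Amn, Cubn 6.00-fold above Dab2, Dab2 1.88-fold above Cd320 and Cd320 105-fold above Lrp2, each in 16 of 16 libraries.

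**Figure D1:**
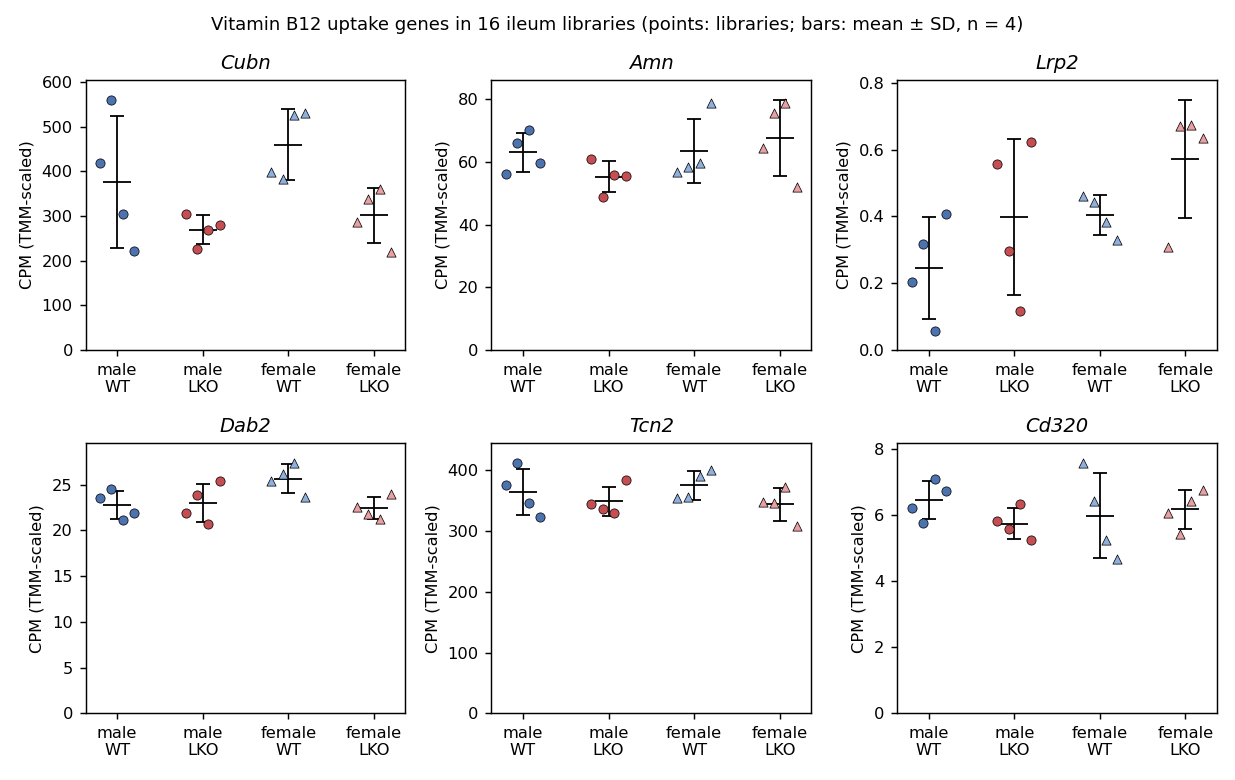
Levels of the 6 genes in CPM (TMM-scaled) on linear axes from 0, with 1 point per library (circles males, triangles females), horizontal bars for the group mean and error bars for the SD (n = 4). Cubn runs from 221 to 560.4 CPM with its widest group in male WT, and all 4 female LKO libraries lie under all 4 female WT libraries.

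Cubn, the receptor, had the largest genotype differences among the 5 members that were well counted. In male WT its level was 419, 560.4, 305 and 221 CPM in replicates 1 to 4, and in male LKO it was 305, 226, 269 and 279 CPM. The male WT libraries thus enclosed the male LKO libraries, which lay close together. In female WT it was 399, 383, 527 and 530.1 CPM, and in female LKO 288, 339, 359 and 221 CPM. The female groups did not overlap, with every LKO library under every WT library. Group means were 376 ± 147 CPM in male WT, 269.7 ± 32.9 CPM in male LKO, 459.9 ± 79.5 CPM in female WT and 302 ± 62.0 CPM in female LKO (SD, n = 4).

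Tested across all genes with edgeR's quasi-likelihood test and Benjamini-Hochberg adjustment, the log2 fold change of Cubn (LKO against WT) was -0.48 in males (SE 0.29, adjusted p 0.999) and -0.60 in females (SE 0.175, p 0.00817, adjusted p 0.309). The female value corresponds to 0.659 of the WT level, and Cubn ranked at 405 by p among 15298 genes. With both sexes in 1 fit the log2 fold change was -0.54 (SE 0.169, p 0.00643, adjusted p 0.221), and 2 SE either side reached from -0.88 to -0.20. None of the 3 passed the threshold of 0.05 under edgeR. With DESeq2, the female difference passed (adjusted p 0.0196), where 1.01% of all genes did, and the difference over both sexes did not (adjusted p 0.0693). Non-overlap as in the females was found for 6.3% of all genes tested there.

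The male value rested on single WT libraries: it was -0.22 without male WT replicate 2, the library with 560.4 CPM of Cubn and 138 CPM of B-cell markers, and -0.66 (p 0.023, adjusted p 0.5925 in edgeR) without male WT replicate 4. Without the 4 libraries over 50 CPM of B-cell markers, the log2 fold change of Cubn was -0.22 in males, -0.78 in females and -0.45 over both sexes. The part of follicle content in the result was not tested beyond this. The genotype differences of the sexes did not differ beyond their error, with an interaction of 0.12 on the log2 scale (male minus female, SE 0.35, adjusted p 0.968 in edgeR).

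Amn, the partner of cubilin, did not follow it in every comparison. Its levels were 56.1, 66.1, 70.03 and 59.7 CPM in male WT and 61.0, 48.9, 55.7 and 55.5 CPM in male LKO. They were 56.7, 58.5, 59.6 and 78.6 CPM in female WT and 64.5, 75.5, 78.7 and 52.0 CPM in female LKO. The groups overlapped in both sexes. The log2 fold change was -0.18 in males (SE 0.0844, p 0.0455, adjusted p 0.926 in edgeR), 0.10 in females (SE 0.146, adjusted p 0.813) and -0.04 over both sexes (SE 0.0936, adjusted p 0.908). The female estimate changed sign without the 4 libraries rich in B-cell markers, to -0.14. The interaction was -0.29 (SE 0.177, p 0.123, adjusted p 0.851).

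The balance of the cubam genes was compared within each library as the ratio of Amn to Cubn counts per kb, which needs no scaling between libraries. It was 0.895, 0.788, 1.53 and 1.80 in male WT and 1.34, 1.45, 1.38 and 1.33 in male LKO. In female WT it was 0.948, 1.02, 0.756 and 0.990, and in female LKO 1.496, 1.49, 1.46 and 1.57. All 4 female LKO libraries lay above all 4 female WT libraries, by 1.63-fold on average. Cubn alone did not overlap between these groups either, like 6.3% of all genes tested there, and Amn overlapped. The ratio is thus not a finding apart from that of Cubn, and the share of other gene pairs without overlap was not computed. The SD of the ratio was small in both LKO groups (1.37 ± 0.0544 in males and 1.504 ± 0.0484 in females, SD, n = 4). It was larger in female WT (0.928 ± 0.119) and largest in male WT (1.25 ± 0.492). These spreads were not tested against each other, and groups of 4 give them little precision. The exact two-sided permutation test of the log2 ratio gave p 0.0286 in females, the smallest p that 4 against 4 allows, and a Benjamini-Hochberg value of 0.0571 over the 4 comparisons made. In males the difference was 0.22 on the log2 scale (exact permutation p 0.457). Between the LKO groups, males lay below females in all 4 libraries, by 0.13 on the log2 scale (exact permutation p 0.0286, adjusted 0.0571), and between the WT groups the difference was 0.36 (males higher, exact permutation p 0.371, adjusted 0.457). Thus no ratio difference passed after adjustment, and the comparisons share libraries. With 1 library left out, the exact permutation p in females stayed at 0.0286. Between the LKO groups the exact permutation p was 0.0571 without any 1 female LKO library, and 0.0286 without any 1 male LKO library. In both comparisons the groups did not overlap, and leaving out a library cannot make them overlap. These p-values thus had little room to change and cannot show how far the differences rest on single libraries. The log2 difference ran from 0.61 to 0.75 in females and from -0.16 to -0.11 between the LKO groups.

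**Figure D2:**
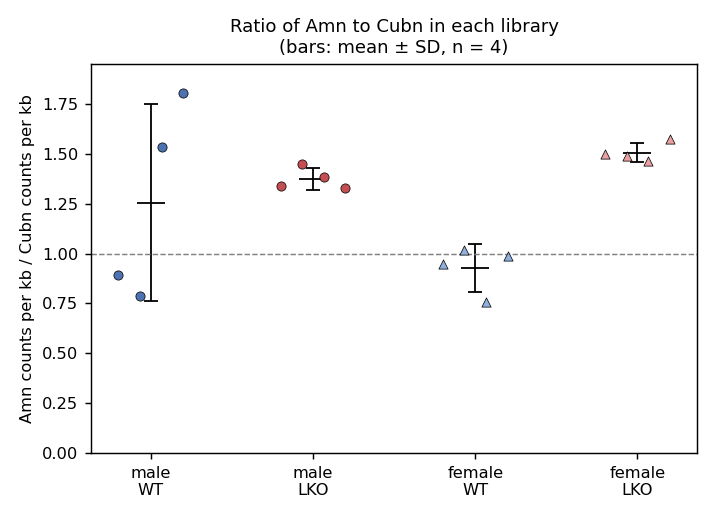
Ratio of Amn to Cubn counts per kb of exon on a linear axis from 0, with 1 point per library (circles males, triangles females), the group mean and SD (n = 4) as bars, and a dashed line at 1. The 4 female LKO libraries (1.46 to 1.57) sit above the 4 female WT libraries (0.756 to 1.02), while male WT spans 0.788 to 1.80.

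Megalin was close to undetected. Lrp2 had 4, 5, 1 and 8 counts in male WT, 11, 5, 2 and 12 in male LKO, 8, 8, 7 and 6 in female WT and 19, 11, 12 and 12 in female LKO. The highest level was 0.673 CPM, and the 1 count of male WT replicate 3 and the 2 counts of male LKO replicate 3 lay under the 3-count limit. Lrp2 passed the filter on low counts only in the fits of the LKO groups and of all 16 libraries. Over all 16, its log2 fold change was 0.52 for LKO against WT (SE 0.337, adjusted p 0.609 in edgeR). The filter has a count minimum of 10, and no WT library had more than 8 counts. Lrp2 thus entered the fits of all 16 libraries only through LKO libraries, where it was higher. Its values in those fits, also between the sexes, are therefore descriptions and no test, and it is 1 of the 6 members counted there.

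Dab2, the adaptor, had the smallest SD of log2 CPM within groups among the 6 genes (0.10). It was 23.6, 24.6, 21.1 and 21.9 CPM in male WT, 21.9, 23.9, 20.7 and 25.4 CPM in male LKO, 25.3, 26.2, 27.3 and 23.6 CPM in female WT and 22.6, 21.8, 21.3 and 24.0 CPM in female LKO. Only female LKO replicate 4 reached into the range of female WT. The log2 fold change was 0.02 in males (SE 0.0911, adjusted p 0.999 in edgeR), -0.19 in females (SE 0.0769, p 0.0311, adjusted p 0.375) and -0.09 over both sexes (adjusted p 0.617). Dab2 is also made by macrophages and endothelial cells, whose summed 10-gene marker lists spanned 479.5 to 697 CPM and 257 to 344 CPM over the 16 libraries, and their part in the Dab2 level was not tested.

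Tcn2, the carrier, ran from 308 to 411 CPM over all libraries. It lay at 375, 411, 346 and 323 CPM in male WT and 343, 336, 329.9 and 383 CPM in male LKO. It lay at 354, 355, 389.8 and 399.5 CPM in female WT and 347, 345, 372 and 308 CPM in female LKO. The groups overlapped in both sexes, with log2 fold changes of -0.06 in males (SE 0.080, adjusted p 0.999 in edgeR) and -0.12 in females (SE 0.0718, p 0.118, adjusted p 0.519). Over both sexes the value was -0.09, and 2 SE either side reached from -0.20 to 0.01. The direction in males turned, to 0.00, without male WT replicate 2.

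Cd320, the transcobalamin receptor, was low in every group, at 6.46 ± 0.582 CPM in male WT, 5.75 ± 0.463 CPM in male LKO, 5.99 ± 1.29 CPM in female WT and 6.18 ± 0.580 CPM in female LKO (SD, n = 4). Single libraries ran from 4.67 to 7.59 CPM, both ends in female WT, so that this group enclosed the other 3. The log2 fold change was -0.17 in males (SE 0.136, adjusted p 0.999 in edgeR) and 0.05 in females (SE 0.160, adjusted p 0.917), and the female sign turned without female WT replicate 3 or 4.

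Counted together, 0 of 5 members passed in males and 0 of 5 in females at edgeR's adjusted threshold, which 0.0527% and 0.0392% of all genes reached. At an unadjusted p under 0.05 there was 1 gene in males (Amn) and there were 2 in females (Cubn, Dab2), where 5.29% and 11.7% of all genes reached it. DESeq2 called 0 in males (0.415% of all genes) and 1 in females (1.01%). In the fit of both sexes 0 of 6 passed (0.269% of all genes), with 1 at an unadjusted p under 0.05 (11.2%) and 0 by DESeq2 (1.44%), and 5 of the 6 estimates were negative. The median log2 fold change of the tested members was -0.17 in males, -0.12 in females and -0.07 over both sexes, against -0.00195, 0.00703 and 0.000652 over all genes. The interaction gave 0 of 6 by either tool (0% of all genes), with 0 at an unadjusted p under 0.05 (5.64% of all genes).

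**Figure D3:**
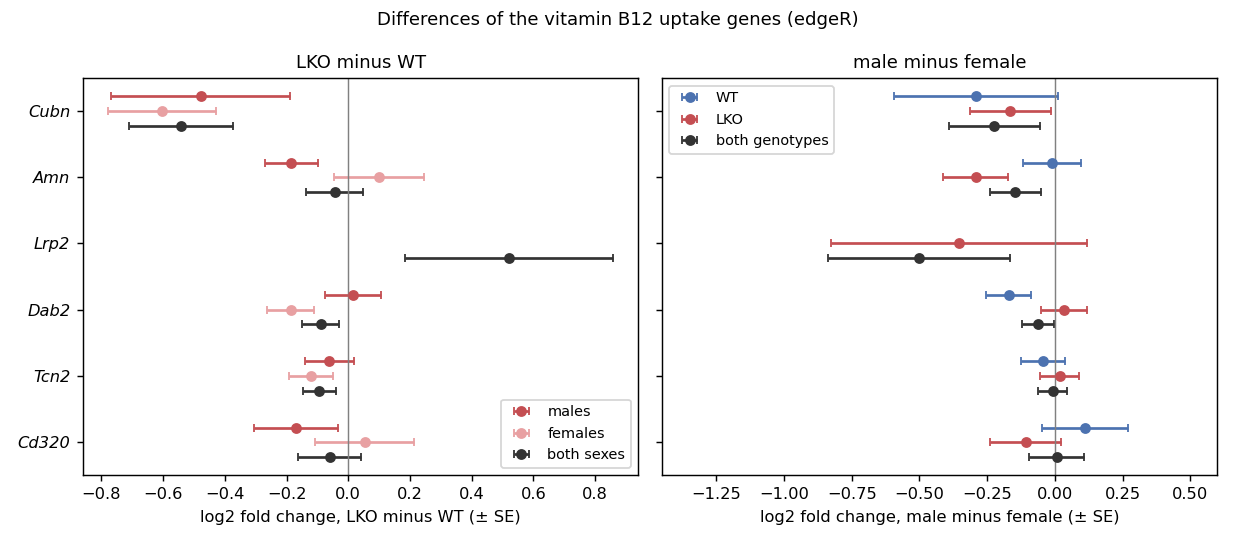
Log2 fold changes from edgeR with standard errors as bars, for LKO minus WT (left) and male minus female (right), in separate and joint fits. Cubn lies left of 0 in all 3 genotype fits (-0.48, -0.60 and -0.54). Amn lies on opposite sides in males and females, and Lrp2 is missing where it was too low to test.

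Between the sexes no member passed either. In WT, Cubn was lower in males by a log2 fold change of -0.29 (SE 0.303, adjusted p 0.724 in edgeR) and Dab2 by -0.17 (SE 0.0835, p 0.0584, adjusted p 0.378). Of the 5 genes tested there, 0 passed (0.25% of all genes), with 0 at an unadjusted p under 0.05 (13.9%) and 0 by DESeq2 (1.64%). In LKO, Amn was lower in males, with a log2 fold change of -0.29 (SE 0.12, p 0.0336, adjusted p 0.188), and Cubn had -0.16 (SE 0.150, adjusted p 0.543). There 0 of 6 passed (0.0984% of all genes), with 1 at an unadjusted p under 0.05 (Amn, 22.6% of all genes) and 0 by DESeq2 (6.84%). Without female LKO replicate 4, which had the lowest Amn of its group, Amn passed (log2 fold change -0.40, adjusted p 0.0363 in edgeR), but 665 genes passed in that fit against 15 with all libraries. Without the libraries rich in B-cell markers Amn had -0.08 and Cubn 0.08. Over both genotypes 0 of 6 genes passed by either tool, where 11% of all genes passed in edgeR and 15.5% in DESeq2, and 0 members (29.3% of all genes) reached an unadjusted p under 0.05. The values were -0.22 for Cubn (SE 0.169), -0.15 for Amn (SE 0.0936), -0.50 for Lrp2 (SE 0.336), -0.06 for Dab2, -0.01 for Tcn2 and 0.01 for Cd320.

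Cubn stood out for its spread within groups. The within-group SD of its log2 CPM was 0.36, larger than that of 98.0% of the 2126 genes with a mean of at least 100 CPM, whose median was 0.10. It was 0.58 in male WT, 0.18 in male LKO, 0.25 in female WT and 0.32 in female LKO. The value for Tcn2, at a similar mean, was 0.11, above 61.9% of the same genes. It was 0.20 for Amn, 0.10 for Dab2 and 0.19 for Cd320. The groups of 4 give each of these SDs little precision.

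Among the 15 pairs of members, 1 moved together across the libraries past adjustment. Cubn and Tcn2 had Pearson's r 0.866 over 16 libraries (permutation p 3e-05, adjusted 0.00045) and Spearman's rho 0.859 (permutation p 7e-05, adjusted 0.00105), and r was 0.781 without the 2 libraries farthest in Cubn. In the 8 females r was 0.938 (exact permutation p 0.00139, adjusted 0.0209, 0.803 without the 2 farthest), and in the 8 males it was 0.848 (exact permutation p 0.00789, adjusted 0.118, 0.489 without the 2 farthest). Spearman's rho did not pass within either sex, at 0.881 in females (exact permutation p 0.00724, adjusted 0.109) and 0.833 in males (exact permutation p 0.0154, adjusted 0.164). The genes of cubam were less tied, with r 0.47 for Cubn and Amn (permutation p 0.0679, adjusted 0.26), rho 0.491 (permutation p 0.0538, adjusted 0.27), and r 0.313 without the 2 farthest. Within the sexes that pair had r 0.484 in males (exact permutation p 0.227) and 0.371 in females (exact permutation p 0.361). The range was unequal, since Cubn covered 221 to 560.4 CPM and Tcn2 308 to 411 CPM. The permutations moved libraries across the groups, so all these p-values also take in differences between groups. With the group means subtracted, r of Cubn and Tcn2 was 0.881, for which no p was computed.

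**Figure D4:**
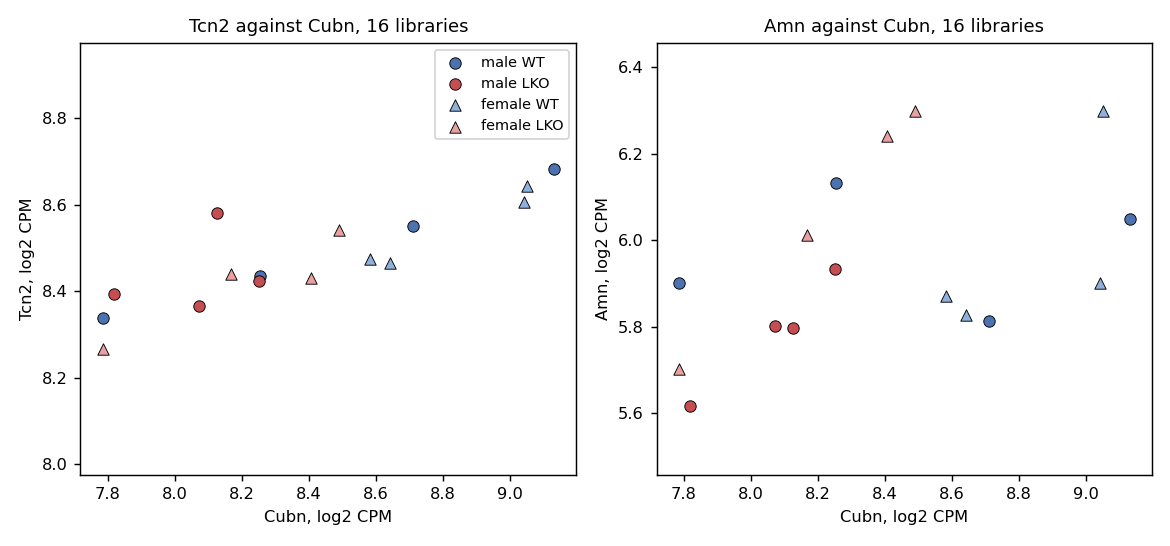
Tcn2 (left) and Amn (right) against Cubn in log2 CPM, 1 point per library, colored by genotype with circles for males and triangles for females; both vertical axes span 1 log2 unit. Tcn2 climbs with Cubn (r 0.866), while in the Amn panel (r 0.47) the female WT libraries lie to the right of the female LKO libraries.

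The genes most like each member were ranked by Pearson's r of log2 CPM after the group means were subtracted, over 16 libraries and 14423 other genes with a mean of at least 1 CPM, as a description. For Cubn they were Xpnpep2 (r 0.969), a membrane-bound aminopeptidase P, Pepd (0.942), a dipeptidase that splits off proline, and Cndp2 (0.914), a cytosolic dipeptidase. Tcn2 ranked at 10 in that list (0.881), Amn at 897 (0.53), Dab2 at 5413 (0.0961) and Cd320 at 14000 (-0.562). For Amn they were Cdhr5 (0.886), a cadherin of the microvilli, Rnpepl1 (0.885) and the zinc importer Slc39a4 (0.868). For Tcn2 they were the diamine oxidase gene Aoc1 (0.940), 1810058I24Rik (0.909) and again Xpnpep2 (0.909). For Dab2 they were D16Ertd472e (0.903), the growth factor gene Egf (0.875) and Cplx2 (0.846). For Cd320 they were Il12rb1 (0.904), an interleukin receptor subunit, Apold1 (0.861) and Jaml (0.852). For Lrp2, at 1 to 19 counts, they were Trim44 (0.841), Lrp12 (0.839) and Fyco1 (0.834). So many genes were ranked over so few libraries that these values are no test of a relation.

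Beyond uptake, all 17 tested genes of the intracellular handling of the vitamin were counted in every ileum library. Of 18 genes on the list, 17 were tested, and the gene of intrinsic factor itself (listed as Gif), which is made in the stomach, did not exceed 0.165 CPM. Lysosomal export was represented by Lmbrd1 (14.5 CPM per kb, mean of 16) and Abcd4 (13.4). The trafficking and processing proteins Mmachc (5.61) and Mmadhc (51.2) followed. Of the B12-dependent enzymes, methionine synthase Mtr was low (1.34), as was its reductase Mtrr (2.36), while methylmalonyl-CoA mutase (listed as Mut) stood at 14.2. Around the mutase lay Mmaa (7.45), Mmab (7.51), Mcee (22.8), Pcca (10.8) and Pccb (43.7). Clybl, an enzyme that protects the mutase pathway, stood at 14.5, the exporter Abcc1 at 3.96, and the transcriptional regulators of Mmachc, Hcfc1, Thap11 and Zfp143, at 15.9, 12.3 and 8.81. Of the uptake genes only Tcn2 exceeded every gene of this list on this scale.

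**Figure D5:**
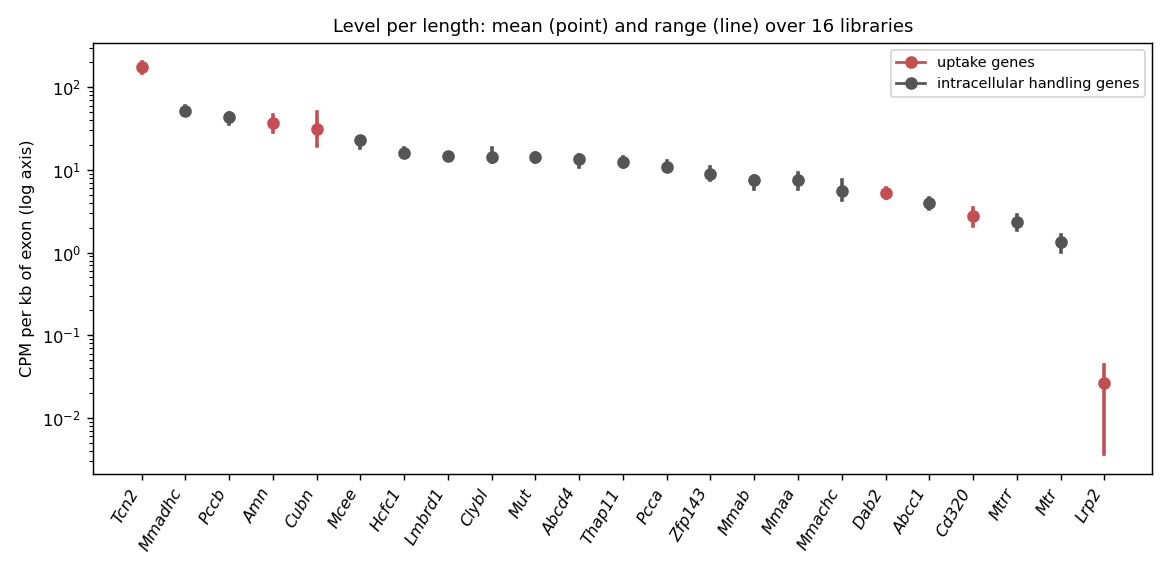
Level per kb of exon (CPM per kb, log axis) of the 6 uptake genes (red) and the 17 tested genes of intracellular handling (gray), with the mean as a point and the range over 16 libraries as a line. Tcn2 leads at 174 and Lrp2 is last at 0.0263, with Amn and Cubn (37.0 and 31.3) in the upper part.

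In the genotype comparisons edgeR called 0 of these 17 genes in males, in females and over both sexes, against 1, 2 and 3 at an unadjusted p under 0.05, which 5.29%, 11.7% and 11.2% of all genes reached, so these shares were near those of all genes. Mmab, the adenosyltransferase that makes the coenzyme of the mutase, had the smallest p in males and over both sexes. It ran from 23.3 to 25.3 CPM in male WT and from 19.3 to 23.0 CPM in male LKO, so those groups did not overlap (2.87% of all genes did not), and from 22.2 to 25.2 CPM in female WT and from 17.4 to 23.1 CPM in female LKO. Its log2 fold change was -0.21 in males (SE 0.0855, adjusted p 0.869 in edgeR), -0.23 in females (SE 0.0919, adjusted p 0.367) and -0.23 over both sexes (SE 0.0586, p 0.000978, adjusted p 0.110). DESeq2 gave an adjusted p of 0.0303 for the last, in a fit where 1.44% of all genes passed. How many of the 17 genes DESeq2 called was not counted. Mut ran from 51.9 to 55.3 CPM in female WT and from 46.1 to 49.4 CPM in female LKO without overlap, as did 6.3% of all genes tested there. Its log2 fold change was -0.19 (SE 0.0572, p 0.00669, adjusted p 0.293 in edgeR). In males the next smallest p were those of Abcd4 (-0.18) and Lmbrd1 (0.09), and in females the third was that of Pccb (-0.09). The median of the list was -0.03 in males (-0.00195 over all genes) and -0.03 in females (0.00703 over all genes). Between the sexes over both genotypes, Zfp143 was higher in males (0.19, SE 0.0514, adjusted p 0.0246), 1 of 17 in a fit where 11% of all genes passed.

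Of the 19 endocytic and lysosomal partners, among them clathrin, the AP2 subunits and cathepsins, edgeR called 0 in males, 0 in females and 0 over both sexes, against 0, 2 and 2 at an unadjusted p under 0.05 (5.29%, 11.7% and 11.2% of all genes). Among the smallest p in males were those of Ctsl (-0.13, adjusted p 0.991 in edgeR) and Ctsd (-0.11). In females they were those of Ocrl, a phosphatase of the endocytic pathway (-0.21, adjusted p 0.330), the lysosomal membrane protein gene Lamp2 (-0.24) and Myo6 (-0.17). Their median log2 fold change was 0.00 in males and -0.02 in females. Between the sexes over both genotypes, Myo6, a motor of endocytic vesicles, was higher in males (0.21, SE 0.0542, adjusted p 0.0216), 1 of 19 in the same fit, in which 11% of all genes passed and the smooth muscle and epithelial markers moved as given above.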

How the data were processed

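The authors made stranded mRNA libraries (single-end reads), aligned them to mm10 with STAR 2.5.2, keeping uniquely mapped reads, and deposited raw whole-number counts per gene over exons from HOMER 4.10. They used DESeq2. Whether HOMER counted by strand was not stated. All per-sample columns were used. The 6 genes and the lists were chosen with earlier results of these data known. Here counts were tested in R 4.3.3 with edgeR 4.0.16 (TMM scaling, filterByExpr with its count minimum of 10, quasi-likelihood test, Benjamini-Hochberg adjustment over all genes tested, threshold 0.05), on the 8 libraries of 2 groups or on all 16. The fits were tested on simulated data. The differences planted there were larger than those of the well-counted members, so the finding of smaller ones was not tested. Ratios were tested by exact permutation and correlations of log2 CPM (prior count 2) by permutation (scipy 1.17.1). Named were all members, the 3 genes most like each, every gene of the handling list, and list genes past the threshold or, where none passed, those with the 3 smallest p; 1 gene so picked is not reported here. Alternatives were DESeq2 1.42.0, other scalings and filters, leaving out each library, the replicate number as a block and the number in the title as a covariate. Leaving out libraries over 50 CPM of B-cell markers was chosen after seeing the data.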

Additional observations from a re-analysis of the deposited data

Results flagged for a closer look

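In 28 sets of 4 libraries (each gene, and the Amn to Cubn ratio, in each group) the highest and the lowest library were compared with their neighbors by Dixon's test, which chance alone passes in about 1 of 20 groups, and 2 were marked. Amn in female WT replicate 4 stood at 78.59 CPM, with the next highest library of the group at 59.63 CPM and the lowest at 56.72 CPM. The same library had the highest sum of ileal enterocyte markers of all 16 (7370.4 CPM), and leaving it out moved the female Amn log2 fold change from 0.10 to 0.22. Lrp2 in female LKO replicate 1, the deepest library, stood at 0.307 CPM (19 counts), with the other 3 libraries between 0.636 and 0.673 CPM (11 or 12 counts each).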

How the results depend on the processing

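Over the alternative settings, 291 of 305 log2 fold changes of members kept their sign and their side of the threshold, and with 1 library left out 427 of 456 did. DESeq2 called 1 member in females, Cubn, where edgeR called 0, and leaving out 1 library moved the members called between the LKO groups between 0 and 1 (Amn, without female LKO replicate 4); the cause was not tested. With the title number as a covariate the sign turned for Dab2 in males (-0.10), Cd320 over both sexes (0.0728), and Tcn2 (-0.0374) and Dab2 (-0.0436) between the LKO groups. Upper quartile scaling turned Tcn2 (-0.0302) and Dab2 (-0.0149) between the LKO groups and Cd320 between the sexes (-0.0309), which a minimum of 10 counts in every library turned too (-0.00264). Without the libraries rich in B-cell markers the sign turned for Tcn2 in males (0.00468), Amn in females (-0.14), Cubn (0.0805) and Dab2 (-0.0194) between the LKO groups and Cd320 between the sexes (-0.0205). With 1 library left out, the log2 fold change ran from -0.66 to -0.22 for Cubn in males, from -0.70 to -0.48 in females and from -0.64 to -0.43 over both sexes. Estimates near 0 crossed it: Tcn2 (-0.11 to 0.00468) and Dab2 (-0.0365 to 0.0622) in males, Cd320 in females (-0.0513 to 0.19), the interaction of Cubn (-0.0619 to 0.38), Amn (-0.0603 to 0.11) and Tcn2 (-0.10 to 0.00973) between the WT groups, Tcn2 (-0.0364 to 0.0530) and Dab2 (-0.0245 to 0.0787) between the LKO groups, and Tcn2 (-0.0373 to 0.0160) and Cd320 (-0.0507 to 0.0535) between the sexes. Of 24 same-numbered pairs, 7 correlated above 0.1 (range -0.167 to 0.317). Pairs with different numbers were not compared, so whether the replicate numbers pair the samples cannot be told from this. With the replicate block Cubn had -0.40 in males, -0.61 in females and -0.54 over both sexes, no member was called, and the counts of all genes called became 16, 15 and 16 in place of 8, 6 and 42. The log2 Amn to Cubn ratio within same-numbered pairs was 0.71 in females and -0.13 between the LKO groups (sign-flip p 0.125 each, the smallest that 4 pairs allow in this exact test). Without the libraries rich in B-cell markers it was 0.64 and -0.16 (exact permutation p 0.1 and 0.0667), where fewer libraries raise the smallest p. With 1 library left out it ran from 0.61 to 0.75 and from -0.16 to -0.11. The counts of all genes called moved more than those of the members. DESeq2 gave 63, 154 and 224 in males, females and both sexes, 250 between the WT groups and 1043 between the LKO groups, where edgeR gave 8, 6, 42, 38 and 15. Without a filter they were 25 in males, 15 in females, 71 between the WT groups and 139 between the LKO groups, and with at least 10 counts in every library 14 and 1 for the last 2 comparisons. Upper quartile scaling gave 78 between the LKO groups. The title number gave 3 in males, 2 over both sexes, 17 between the WT groups and 326 between the sexes, where edgeR gave 1723. Without the libraries rich in B-cell markers they were 2 in females, 5 over both sexes, 21 and 33 within the genotypes, and 897 between the sexes. With 1 library left out they ran from 5 to 29 in males, 0 to 4 in females, 5 to 102 over both sexes, 9 to 64 between the WT groups, 7 to 665 between the LKO groups and 934 to 1956 between the sexes. The correlation of Cubn and Tcn2 was 0.857 under relative log expression scaling and 0.876 without scaling. Lrp2, at 1 to 19 counts, is limited by depth.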
